A study of Mus musculus with 32 samples.

Results

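The PYHIN genes (Ifi200 genes) examined here are Ifi202b, Ifi203, Ifi204, Ifi205, Ifi207, Ifi208, Ifi209, Ifi211, Mndal and Aim2, chosen by symbol with earlier results of these data known. All 10 were found among the 49671 genes of the count tables, and 10 of 10 were among the 18382 genes with enough reads to be tested. Ifi205 had enough only through the strain C57/BL6, at a median of 11 reads a library against 3 to 8 in the other strains. Their RNA was measured in vomeronasal epithelial tissue of 32 individual mice, all untreated as far as the labels say and 42 days old (P42), with 4 females and 4 males each of the inbred strains C57/BL6 (B6), 129S6/SVEV (129; the study's text gives another 129 substrain), SJL/J (SJL) and SWR/J (SWR). Each library was made from ribodepleted total RNA and held 5106398 to 18640871 reads on genes. The library of 129 male replicate 1 stood apart within its strain, with a normalized count summed over the members of 234 against 107 to 144 in the other 129 libraries. SJL and SWR are related strains, and the reference genome is that of B6.

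PYHIN proteins pair an N-terminal pyrin domain, which binds other pyrin domains, with a C-terminal HIN domain, which binds DNA. Aim2 is the best known: in myeloid cells it binds DNA in the cytosol and, through the adaptor Pycard (ASC), assembles the inflammasome that activates caspase-1. The genes lie side by side in mammals, have multiplied in mice, and many are induced by interferon through factors that bind an interferon-stimulated response element (ISRE). Ifi202b encodes a protein with HIN domains and no pyrin domain, which counters Aim2, and it is known as a gene whose expression differs between inbred mouse strains. In the vomeronasal organ (VNO), where sensory neurons predominate, such genes are best known from resident immune cells.

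On GRCm38 the genes span 680.9 kb of chromosome 1, from 173350879 to 174031810. Aim2 (chr1:173350879-173466040) lies at the left end and Ifi205 (chr1:174011998-174031810) at the right. Between them lie, among others, Mndal (chr1:173849126-173942491), Ifi203 (chr1:173920407-173942672) and Ifi202b (chr1:173962568-173982744). The table also held Ifi206, Ifi213, Ifi214 and the pseudogene Ifi203-ps of this cluster.

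The 150 bases before the transcription start are shown for 6 members, because the ISRE core (a pair of GAAA half-sites with any 2 bases between them, searched on both strands) was found in some members and not in others at this place. Capitals mark the ISRE core or, in Ifi202b, a GAS-type match (TTC and GAA with any 3 bases between them). Sequences are RefSeq reference (B6) sequence of GRCm38.p6, written 5′ to 3′ along the gene's strand.
Ifi207 (chr1:173741810-173741959, minus strand): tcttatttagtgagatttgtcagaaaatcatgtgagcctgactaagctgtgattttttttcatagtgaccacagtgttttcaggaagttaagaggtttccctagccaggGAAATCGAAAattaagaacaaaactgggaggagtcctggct
Ifi208 (chr1:173673515-173673664, plus strand): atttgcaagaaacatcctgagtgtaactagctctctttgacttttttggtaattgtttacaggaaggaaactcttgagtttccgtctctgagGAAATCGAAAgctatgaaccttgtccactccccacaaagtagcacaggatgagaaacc
Ifi211 (chr1:173913047-173913196, minus strand): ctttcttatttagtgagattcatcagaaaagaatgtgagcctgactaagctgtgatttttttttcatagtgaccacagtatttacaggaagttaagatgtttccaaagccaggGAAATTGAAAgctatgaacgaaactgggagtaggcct
Ifi203 (chr1:173942493-173942642, minus strand): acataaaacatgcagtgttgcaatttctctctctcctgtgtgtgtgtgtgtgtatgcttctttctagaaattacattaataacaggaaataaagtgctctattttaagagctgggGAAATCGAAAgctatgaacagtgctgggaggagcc
Ifi209 (chr1:173630709-173630858, plus strand): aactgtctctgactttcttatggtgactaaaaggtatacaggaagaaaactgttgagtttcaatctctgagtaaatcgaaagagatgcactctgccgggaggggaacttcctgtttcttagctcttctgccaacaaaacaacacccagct
Ifi202b (chr1:173982845-173982994, minus strand): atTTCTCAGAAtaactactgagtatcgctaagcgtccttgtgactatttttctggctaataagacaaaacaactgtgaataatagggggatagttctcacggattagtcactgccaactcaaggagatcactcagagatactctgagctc
Of the members, 9 had a RefSeq window of 250 bases before the start, and 6 of these 9 held the ISRE core in at least 1 window, against 2.98% of 32851 windows of all genes. Member counts are per gene, and Ifi203 and Mndal have more than 1 window, whereas the shares of all genes are per window. The 6 were Ifi203, Ifi205, Ifi207, Ifi208, Ifi211 and Mndal, and in all but Ifi205 it lay 25 to 48 bases before a start. These genes are paralogs whose windows resemble each other, so they are not independent. The ETS-IRF motif (GGAA and GAAA with any 2 bases between them, both strands) was found in 0 members (2.3% of all windows), and the GAS motif in 1, Ifi202b (7.02% of all windows). Matches describe the letters of the reference strain only; the 3 other strains' sequences were not analysed here.

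Each of the 10 members was differentially expressed (DE) between at least 1 pair of strains, where DE means an FC above 2 (absolute LFC above 1) with an FDR under 0.05 in edgeR's quasi-likelihood test, adjusted over all 18382 genes. Of all genes tested, 19.8% were DE in at least 1 pair. As Ifi205 was tested only through B6, where it was highest, its place among the 10 is a description. B6 had the highest mean of 9 members and the lowest of Ifi202b. The pattern fell into 3 kinds: Ifi202b was high in SWR and low in B6, Mndal was high in B6 and 129 and near absent in SJL and SWR, and most others were highest in B6 and lowest in 129. Because whole tissue was measured, fewer cells of a type and less RNA per cell cannot be told apart. Reads were placed on the B6 genome, and the effect of sequence or copy-number differences between strains on these counts was not tested.

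**Figure D1:**
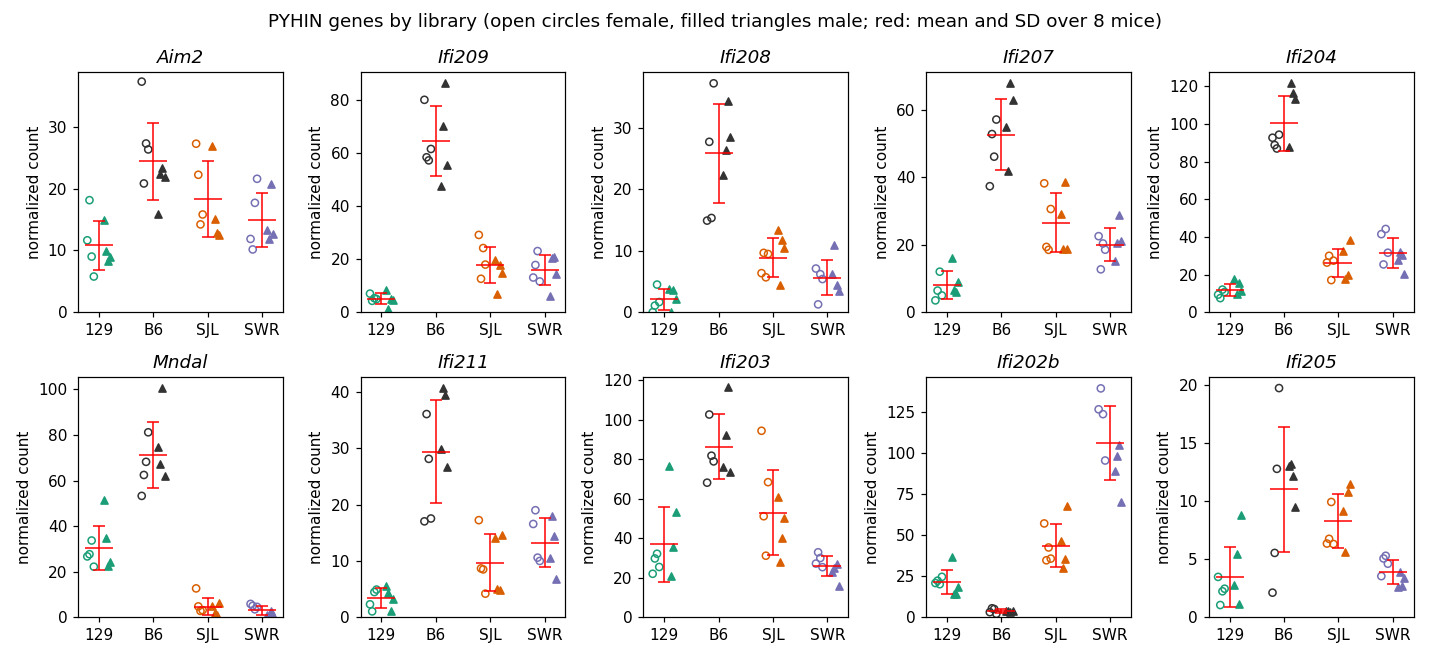
Normalized count (y axis) of each PYHIN member in the 32 libraries by strain (x axis). Open circles are females, filled triangles males, and red marks give the mean and SD of 8 mice. Ifi202b is highest in all 8 SWR libraries, and Mndal lies at 12.7 or below in every SJL and SWR library.

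Ifi202b, the member without a pyrin domain, was DE in all 6 pairs of strains. In B6 its normalized count (the count divided by the size factor of its library) was 3.20, 5.55, 5.12 and 2.19 in females and 3.73, 4.07, 3.04 and 3.81 in males. In 129 it was 20.9, 22.4, 20.2 and 24.7 in females and 36.5, 14.2, 14.3 and 18.8 in males. In SJL it was 57.2, 34.8, 42.6 and 35.8 in females and 46.6, 30.03, 35.5 and 67.8 in males. In SWR it was 127, 139.5, 124 and 95.6 in females and 89.5, 98.1, 105 and 70.2 in males.

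The B6 and SWR libraries each stood clear of all others, while 129 and SJL overlapped in 129 male replicate 1. SWR exceeded B6 by an LFC of 4.69 (SE 0.23, FDR = 1.91e-18 in edgeR), the widest difference of any member in any pair. B6 lay below 129 by an LFC of -2.43 (SE 0.26) and below SJL by an LFC of -3.43 (SE 0.24), and SWR exceeded SJL by 1.26 (SE 0.16). The SJL to 129 difference, an LFC of 1.01 (SE 0.18), only just passed the limit, and it was between 0.89 and 0.99 without 129 female replicate 1 or 3, 129 male replicate 2, 3 or 4, SJL female replicate 1, or SJL male replicate 1 or 4. The B6 level rests on 1 to 6 reads a library.

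Mndal, a pyrin and HIN domain gene named for its likeness to the human myeloid nuclear differentiation antigen, ran almost opposite to Ifi202b between B6 and SWR. Its normalized count in B6 was 53.3, 62.5, 68.2 and 81.2 in females and 74.5, 67.1, 100.4 and 62.0 in males. In 129 it was 26.7, 27.7, 33.7 and 22.2 in females and 51.5, 35.0, 22.6 and 24.4 in males. In SJL it was 12.7, 4.83, 2.84 and 3.16 in females and 4.94, 1.88, 0.985 and 6.26 in males. In SWR it was 5.92, 5.07, 3.54 and 4.62 in females and 0.886, 0.785, 2.70 and 0.846 in males.

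All B6 libraries lay above all 129 libraries, and these above all SJL and SWR libraries, which overlapped. B6 exceeded SWR by an LFC of 4.58 (SE 0.32, FDR = 3.99e-14 in edgeR) and SJL by 3.89 (SE 0.29). 129 exceeded SWR by 3.37, given as an LFC of -3.37 for SWR minus 129 (SE 0.33), although 129 was the strain lowest in most other members. SJL and SWR were not DE from each other (LFC for SWR minus SJL -0.69, SE 0.42, FDR = 0.22). Mndal shares 4.27% of its exon bases with Ifi203 and Gm38050 on the same strand.

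Ifi204 (p204), a nuclear and cytosolic DNA binding protein, showed the B6-high and 129-low pattern most clearly. Its normalized count in B6 was 92.7, 88.8, 87 and 94.4 in females and 87.6, 122, 117 and 113 in males. In 129 it was 9.30, 7.46, 12 and 10.7 in females and 17.8, 9.83, 15.5 and 11.1 in males. SJL ranged from 17.0 to 38.6 around a median of 26.9, and SWR from 20.3 to 44.2 around a median of 31.1.

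B6 stood apart from the 3 other strains without overlap, and exceeded 129 by an LFC of 3.08 (SE 0.18, FDR = 5.36e-16 in edgeR). SJL exceeded 129 by 1.14 (SE 0.19) and SWR exceeded 129 by 1.41 (SE 0.19), while SWR and SJL were not DE (LFC 0.27, SE 0.17). The SJL to 129 difference was not called in males only (LFC 0.97) or with either of the 2 library measures given at the end as a term (LFC 0.91 with the other-tissue level and 0.24 with the macrophage marker sum).

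Ifi209 had the largest B6 to 129 difference among the members, an LFC of 3.65 (SE 0.27, FDR = 1.65e-13 in edgeR). Its normalized count was 79.9, 58.3, 57.1 and 61.4 in B6 females and 47.5, 70.2, 86.2 and 55.3 in B6 males, against 1.09 to 8.42 over the 8 libraries of 129. SJL (6.88 to 29.1) and SWR (6.20 to 23.0) overlapped each other and lay below every B6 library. Each exceeded 129, by an LFC of 1.77 (SE 0.29) and 1.63 (SE 0.29).

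Ifi208, Ifi211 and Ifi207 followed the same order of B6 highest and 129 lowest. Ifi208 averaged 25.9 ± 8.10 normalized counts in B6 and 2.09 ± 1.72 in 129 (SD, n = 8), an LFC of 3.44 (SE 0.36). Ifi211 averaged 29.4 ± 9.08 in B6 and 3.42 ± 1.73 in 129 (SD, n = 8), an LFC of 3.02 (SE 0.32). Ifi211 is the member whose counting is least certain, as 56.9% of its 100-base windows also occur in another gene's transcripts, mostly those of Ifi205, whereas 0 windows of Ifi202b and Aim2 do. Ifi207 averaged 52.6 ± 10.4 in B6, 26.4 ± 8.75 in SJL, 19.9 ± 4.86 in SWR and 8.01 ± 4.10 in 129 (SD, n = 8). Its B6 to SJL difference, an LFC of 0.98 (SE 0.20), fell just short of the limit.

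Ifi203, Ifi205 and Aim2 differed less. Ifi203 had a normalized count of 68.2 to 117 in B6, 28.2 to 94.5 in SJL, 20.8 to 76.7 in 129 and 16.1 to 33.0 in SWR, so that only SWR was clear of B6. B6 exceeded SWR by an LFC of 1.75 (SE 0.24) and 129 by 1.22 (SE 0.23), the latter not called in males only (LFC 0.92). With the strains pooled, Ifi205 was the lowest member in counts, though it was not the lowest within any strain. Its mean was 11.0 ± 5.35 in B6, 8.31 ± 2.30 in SJL, 3.90 ± 1.02 in SWR and 3.45 ± 2.59 in 129 (SD, n = 8). Ifi203 and Ifi205 were the 2 members lower in SWR than in SJL, with an LFC of -1.05 (SE 0.24) and -1.04 (SE 0.33), both close to the limit. Ifi203 lost this call without SJL female replicate 1 or 4 or SWR male replicate 4, and Ifi205 without SJL female replicate 3, SJL male replicate 3 or 4, or SWR male replicate 1, 3 or 4.

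Aim2, the DNA sensor of the inflammasome, was the most even of the 10 across strains. Its normalized count was 37.3, 20.8, 27.3 and 26.3 in B6 females and 15.8, 22.4, 23.3 and 21.9 in B6 males. In 129 it was 11.6, 18.1, 8.99 and 5.77 in females and 15, 9.83, 8.34 and 8.86 in males. It averaged 18.3 ± 6.16 in SJL and 15 ± 4.39 in SWR (SD, n = 8). Only the B6 to 129 difference was called, with an LFC of 1.17 (SE 0.23, FDR = 5.56e-05 in edgeR), and 1 library of 129 lay within the B6 range. This call, its only one, was lost in males only (LFC 0.95), with the other-tissue level as a term (LFC 0.98) and with the macrophage marker sum as a term (LFC 0.67, FDR = 0.566 in edgeR).

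Counted by pair, 9 members were higher in B6 than in 129 and 1, Ifi202b, was lower, where 8.72% and 2.4% of all genes tested were called in these directions. Against SWR, 8 members were higher in B6 and 1 lower (5.53% and 2.52% of all genes), and against SJL 5 were higher in B6 and 1 lower (5.33% and 2.67%). SJL exceeded 129 in 7 members and lay below it in 1, Mndal (5.61% and 2.76%). SWR exceeded 129 in 6 and lay below it in 1, again Mndal (4.62% and 3.11%). The related strains SWR and SJL differed least, with 1 member higher in SWR, Ifi202b, and 2 lower (2.19% and 2.31%). The median LFC of the members was 2.14 for B6 minus 129 and -0.35 for SWR minus SJL, where the medians over all genes tested were 0.021 and -0.0068. Pairs of strains share libraries, so these counts are not independent of each other. Ifi205, tested only through its B6 reads, is among the 9 and the 8 higher in B6, and its part in them is a description.

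**Figure D2:**
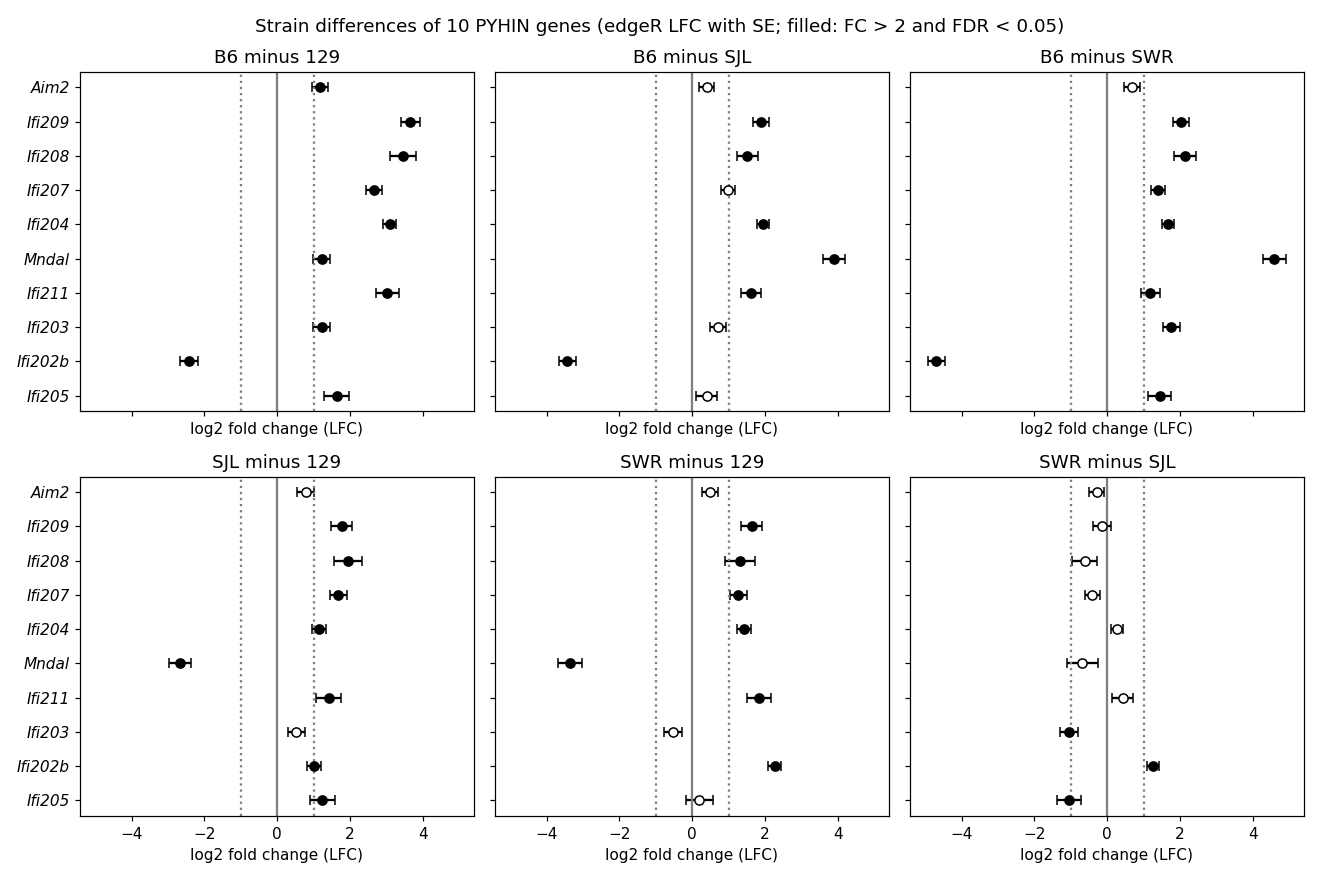
LFC (x axis, log2) of the 10 PYHIN members (y axis, in cluster order) for each pair of strains, with its SE as a bar. Filled points are DE and dotted lines mark an FC of 2; Ifi202b lies opposite to the other members in the 3 comparisons with B6, while Mndal is the only member below 0 in SJL minus 129, and Mndal and Ifi203 are below 0 in SWR minus 129.

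The make-up of PYHIN RNA also differed between strains. Summed over the members, the normalized count was 469.5 ± 60.8 in B6, 240.2 ± 40.7 in SWR, 217 ± 55.7 in SJL and 134 ± 42.9 in 129 (SD, n = 8). Ifi202b made up 44.0% ± 3.82 of this sum in SWR, 20.4% ± 4.02 in SJL, 16.3% ± 3.70 in 129 and 0.834% ± 0.272 in B6 (SD, n = 8). Mndal made up 23.2% ± 4.68 in 129 and 15.1% ± 1.87 in B6, but 1.99% ± 1.04 in SJL and 1.2% ± 0.744 in SWR (SD, n = 8). The member with the largest mean share was Ifi202b in SWR, Ifi204 in B6 (21.4% ± 2.25), and Ifi203 in 129 (26.7% ± 6.28) and in SJL (23.9% ± 4.76, within the spread of Ifi202b; SD, n = 8). The share of Ifi202b in every SWR library (40.6 to 51.9%) was above that in every library of the other strains.

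**Figure D3:**
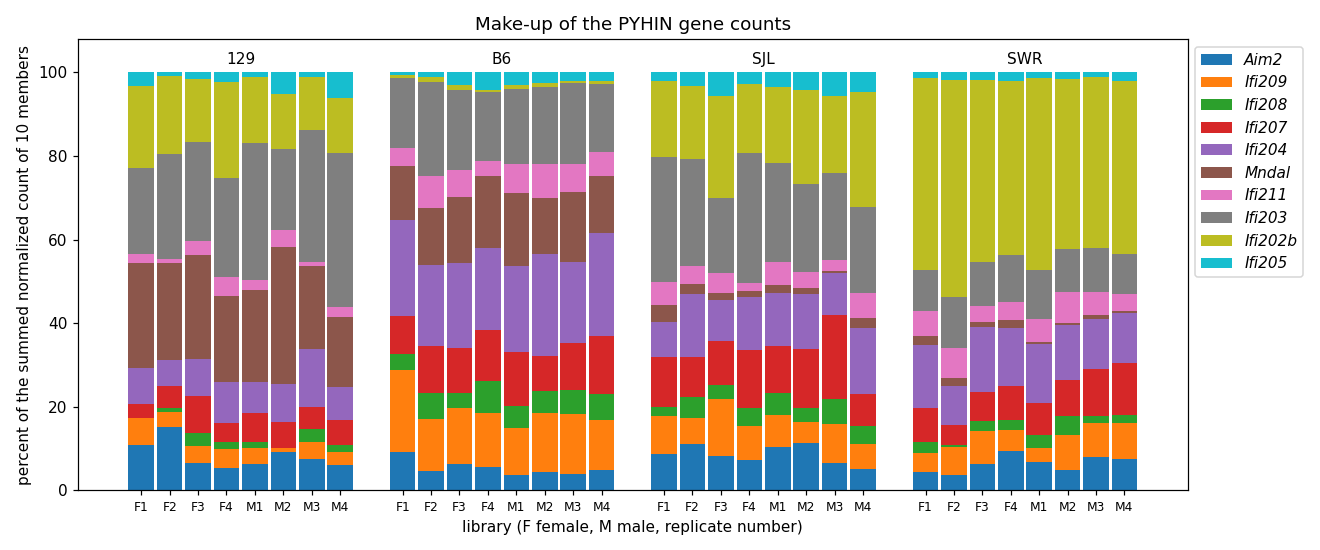
Share (y axis, percent) of each member in the summed normalized count of the 10 PYHIN genes, 1 bar per library (x axis), grouped by strain. Ifi202b is a thin band in B6 and the widest band in SWR, and Mndal is wide in 129 and B6 only.

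Levels of different genes were compared per kb of exon. In SWR, Ifi202b reached 62.5 ± 13.4 normalized counts per kb, followed at a distance by Ifi204 at 8.89 ± 2.23 and Ifi211 at 7.43 ± 2.46, which did not differ beyond their spread (SD, n = 8). In B6 the order began with Ifi204 at 28.2 ± 4.08, Mndal at 19.6 ± 4.00 and Ifi209 at 18.2 ± 3.72 per kb, the latter 2 within their spread, and ended with Ifi202b at 2.26 ± 0.645 (SD, n = 8). In SJL, Ifi202b led at 25.8 ± 7.63 per kb, ahead of Ifi203 at 7.92 ± 3.23 and Ifi207 at 7.72 ± 2.55, and Mndal was last at 1.30 ± 1.01 (SD, n = 8). In 129, Ifi202b at 12.7 ± 4.17 and Mndal at 8.40 ± 2.68 per kb were the highest, and Ifi208 at 0.398 ± 0.327 the lowest (SD, n = 8). The members at the bottom of each order are read from few reads.

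Of the 4 other PYHIN genes in the table, 3 were tested and all 3 were higher in B6 than in 129 (8.72% of all genes). Ifi206 and Ifi213 had enough reads to be tested in B6 only, at 20 to 38 and 36 to 112 reads a library. In the other strains they had at most 7 and 8. Their being tested thus depended on being high in B6, and the count of 3 is a description. Ifi213 had 89.8 ± 14.1 normalized counts in B6, 3.53 ± 2.57 in SWR, 2.70 ± 1.96 in SJL and 0.0937 ± 0.265 in 129 (SD, n = 8). The 129 value stands for 1 read in 8 libraries against 668 reads in B6, a depth-scaled ratio of 768 with a 95% counting interval from 137 to 30400. Ifi206 had 33.3 ± 8.82 normalized counts in B6 and 0.583 ± 1.27 in 129 (SD, n = 8), from 235 and 4 reads, a ratio of 67.6 (95% counting interval 26.1 to 250). Ifi214 went otherwise, with 7.86 ± 5.50 in B6, 7.95 ± 3.02 in SJL, 8.37 ± 3.12 in SWR and 1.82 ± 1.65 in 129 (SD, n = 8). Ifi213, Ifi206 and Ifi214 held the ISRE core in the window before their start too.

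**Figure D4:**
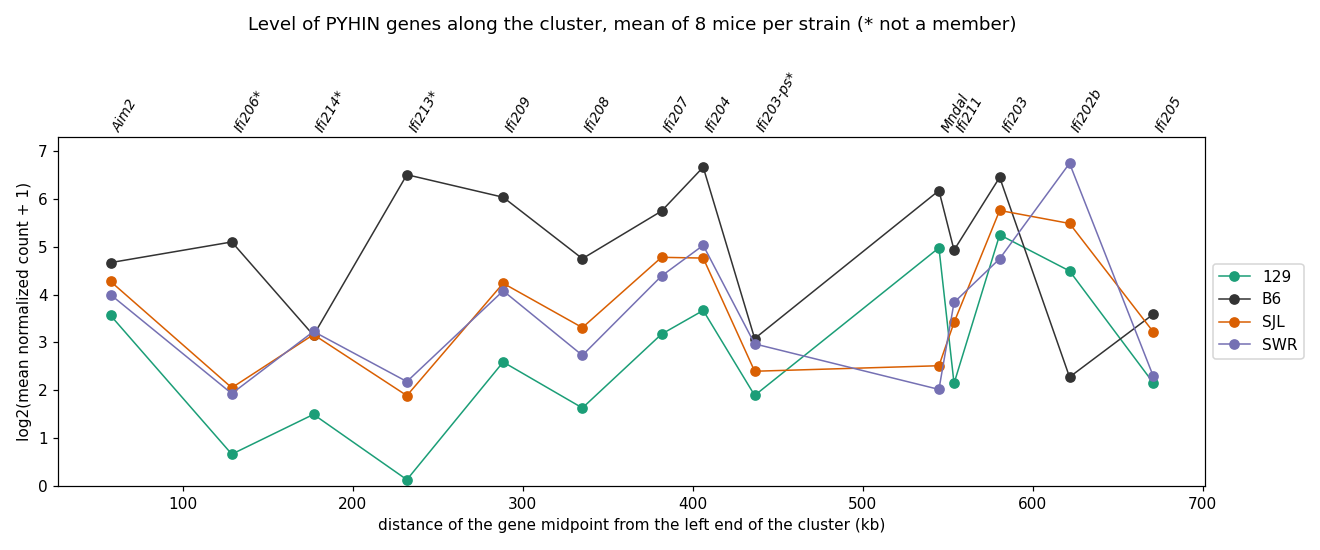
Mean level of the 14 PYHIN genes, as log2(mean normalized count + 1) of 8 mice (y axis), against the distance of the gene's midpoint from the left end of the cluster in kb (x axis); lines join genes of 1 strain. B6 is highest at most genes and lowest at Ifi202b, and 129 is lowest at most genes but not at Mndal, Ifi203 or Ifi202b.

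Genes outside the PYHIN family were examined within the cluster and to 1000000 bases on either side of it. Of 67 such genes 15 were tested, and 7 (46.7%) were DE in at least 1 pair, where 19.8% of all genes were. They did not share 1 pattern. Slamf9, a receptor of the SLAM family on immune cells, had 32.7 ± 6.20 normalized counts in B6 and 8.25 ± 4.13 in 129, whereas Kcnj10, a glial potassium channel, had 25.4 ± 12.5 in B6 and 53.6 ± 15.3 in 129 (SD, n = 8). Fmn2, an actin nucleator of neurons, was highest in SWR, at 2092 ± 153, and 4933439K11Rik in SJL, at 58.2 ± 4.82 (SD, n = 8). Slamf8 and Gm37125, also DE, were at 7.12 or below in the mean of each strain.

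No sex difference was called for any member. In 16 males against 16 females with strain as a term, 0 members were DE in edgeR and in DESeq2, 0 had an unadjusted p under 0.05 in edgeR, and the LFC ranged from -0.22 (Aim2) to 0.30 (Ifi208); 0.0381% of all genes were called. The interaction of sex and strain was called for 0 members in both tools and for 0.0163% of all genes. Mndal (FDR = 0.454 in edgeR) and Ifi203 (FDR = 0.513 in edgeR) were the 2 members with an unadjusted p under 0.05. Mean Ifi203 was 46.6 ± 24.1 in 129 males and 27.4 ± 4.51 in 129 females, but 44.8 ± 13.9 in SJL males and 61.4 ± 26.8 in SJL females (SD, n = 4).

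The pathway around the members was followed in 4 lists. Among inflammasome partners, 8 of 16 tested genes were DE in at least 1 pair (19.8% of all genes), 7 of them higher in B6 than in 129 (8.72% of all genes). Naip5, a sensor of bacterial flagellin, had 26.4 ± 9.66 normalized counts in B6 and 5.34 ± 1.95 in 129 (SD, n = 8), an LFC of 2.25 (SE 0.28). Nlrp1a, another inflammasome sensor, was at 0 in all 8 libraries of 129 and at 9.94 ± 3.70 in SJL (SD, n = 8). Il18, the cytokine that caspase-1 matures, was highest in SWR, as Ifi202b was, with 46.6 ± 7.65 in SWR, 28.5 ± 9.42 in 129, 18 ± 3.30 in B6 and 16.9 ± 4.11 in SJL (SD, n = 8). Naip and Nlrp1 genes have close copies, and only uniquely placed reads were counted, so reads that fit several copies were left out. Whether this differed between strains was not tested.

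Among genes of DNA sensing, 3 of 17 tested (17.6%) were DE in at least 1 pair, near the 19.8% of all genes. The 3, Zbp1, Tlr9 and Mb21d1 (cGAS), were higher in B6 than in 129. Zbp1, a sensor of unusual nucleic acid helices, had 196 ± 52.7 normalized counts in B6 and 78.4 ± 19.7 in 129 (SD, n = 8). Among genes of interferon signalling, 4 of 19 tested (21.1%) were DE, also near the share of all genes, and the list's median LFC for B6 minus 129 was 0.037. Irf7 and Usp18 were higher and Socs3 lower in B6 than in 129. Usp18, an interferon-induced brake on the receptor, ranged in normalized counts from 49.9 ± 24.1 in 129 to 285 ± 53.8 in B6, with SJL at 132 ± 79.3 and SWR at 119 ± 14.6 (SD, n = 8).

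Of 40 interferon-stimulated genes outside the cluster, 25 (62.5%) were DE in at least 1 pair, against 19.8% of all genes tested. Of the 40, 22 were higher and 1 lower in B6 than in 129 (8.72% and 2.4% of all genes). Oasl2, an antiviral protein of the oligoadenylate synthetase family, had 1201 ± 119 normalized counts in B6, 728 ± 242 in SJL, 593 ± 64.5 in SWR and 234 ± 66.4 in 129 (SD, n = 8). Ifit3 had the order of Ifi203, with 338 ± 58.0 in B6, 193 ± 63.7 in SJL, 86.8 ± 43.3 in 129 and 67.7 ± 8.12 in SWR (SD, n = 8). The gene lower in B6 was Ifi44l, with 193 ± 37.6 in 129 and under 1 on average in each of the other strains.

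Over the 32 libraries, the genes whose log2 normalized counts were most like those of Ifi209 were Ifit2 and Trim34a, most like Ifi203 was Ifit3, and most like Aim2 were Irf9 and Oas1g, by Pearson's r as a measure of likeness only. For Ifi202b these were Brd7 and Il6st, and for Mndal they were H2-T22 and 4930481A15Rik. H2-T22, a nonclassical MHC gene, averaged 360.1 normalized counts in B6 and 190.5 in 129, against 27.3 in SJL and 23.0 in SWR. For Ifi204 they were Pttg1 and Trim34a, for Ifi205 Rian and Tmc7, for Ifi207 Cd48 and Arhgap24, for Ifi208 Cd48 and Oas1b, and for Ifi211 Vmn2r52 and Usp18. All libraries of a strain share its genome, so the 32 libraries are not independent points.

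Between strains, macrophage markers moved with most members, although for B6 minus SJL 0 of 16 markers were called, where 5 members were higher in B6. With each strain centred on its mean, Pearson's r of a member with the logarithm of the marker sum ranged from 0.143 (Aim2) to 0.703 (Ifi203). It was 0.15 for Ifi208, 0.348 for Ifi202b and 0.495 for Mndal. Of the 16 markers 13 were DE in at least 1 pair (19.8% of all genes), 11 of them higher in B6 than in 129 (8.72% of all genes). None was at 0 in all libraries. Their summed level was 202 to 286 rpm (reads per 1000000 reads on genes) in B6, 175 to 248 in SJL, 134 to 187 in SWR and 80.4 to 126 in 129. The 8 members other than Ifi202b and Mndal, summed, were 14.8% ± 1.83 of the macrophage marker sum in B6, 7.24% ± 1.49 in SJL, 7.54% ± 1.44 in SWR and 7.29% ± 1.40 in 129 (SD, n = 8). Ifi202b and Mndal were set aside here after their values were seen, so these shares are a description. SWR, with a marker sum below that of B6 in every library, had the highest Ifi202b, and 129, with the lowest sum, had the second highest Mndal.

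**Figure D5:**
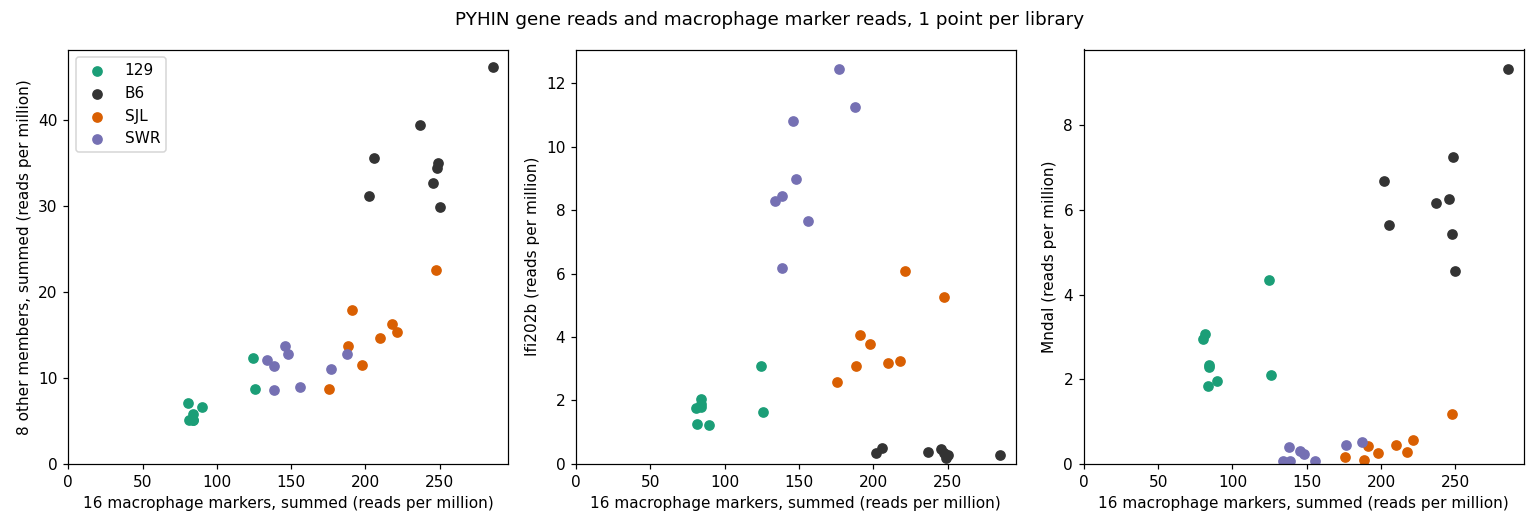
Summed level in rpm for 8 members (left), of Ifi202b (middle) and of Mndal (right) on the y axes against the summed rpm for 16 macrophage markers (x axis), 1 point per library, coloured by strain. Strains with higher marker sums have higher sums of the 8 members on average, B6 above the rest, while Ifi202b is highest in SWR and Mndal near 0 in SJL and SWR at marker sums of 134 or more.

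With the logarithm of each library's marker sum as a term added after seeing the data, 3 members in place of 9 were higher in B6 than in 129, 4 in place of 8 in B6 than in SWR, 5 as before in B6 than in SJL, 0 in place of 7 in SJL than in 129, and 1 in place of 6 in SWR than in 129. Members lower in SJL than in 129 and lower in SWR than in 129 then numbered 2 each in place of 1. The marker sums of 129 do not overlap those of the other strains, nor do those of B6 and SWR, so in these 4 comparisons the term extends a slope within strains beyond the sums that the strains share, and its values are a description. With it the LFC for B6 minus SWR was -5.34 for Ifi202b and 3.76 for Mndal. The sums of B6 and SJL overlap, and there the LFC for B6 minus SJL was -3.64 for Ifi202b (FDR = 2.58e-15 in edgeR) and 3.64 for Mndal (FDR = 8.33e-13 in edgeR). For Ifi203 and Mndal the B6 minus 129 LFC then changed sign, to -1.0 and -0.50, and neither was called. The part of cell numbers in the member differences was not tested beyond this.

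Dendritic cell markers, 6 of 7 tested DE (19.8% of all genes), summed to 286 to 351 rpm in B6 and 295 to 386 in SWR. They summed to 213 to 239 in SJL and 160 to 179 in 129. H2-Ab1 and Bst2, which other cells use as well, are among them, at 2386 ± 245 and 344 ± 25.1 normalized counts in B6 (SD, n = 8). Itgax, Cd209a, Flt3 and Siglech, the others DE, averaged 52.5 or below in B6. Siglech went against the sum, highest in 129 at 28.4 ± 8.17, with 11.6 ± 4.04 in B6 (SD, n = 8). Of the B cell markers 2 of 4 tested were DE, of T and NK cell markers 1 of 1, of neutrophil markers 1 of 3, of red blood cell markers 4 of 6, of endothelial markers 0 of 8 and of vomeronasal neuron markers 0 of 11. The share DE in at least 1 pair over all genes tested was 19.8%. Neuron markers summed to 3250 to 4614 rpm in every library, though Trpc2, 1 of 12 listed, was at 0 in each. Why Trpc2 held no counts was not tested, so this is not read as absence of its RNA. The part of these cell types in the member differences was not tested.

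The level of 247 genes of families best known from other tissues, taken as a rough measure of stray signal, was 13.2 ± 8.16 rpm in B6, 5.58 ± 3.70 in SWR, 5.23 ± 2.35 in SJL and 2.0 ± 1.35 in 129 (SD, n = 8). The highest of these genes were Defb1 at a mean of 0.904 rpm, Tas2r108 at 0.398 and Tas2r137 at 0.349. The study states that some taste receptors are detected in the VNO. How much of this level is the tissue's own RNA was not tested. This other-tissue level moved with the members. With this level as a term added after seeing the data, 5 members in place of 9 were higher in B6 than in 129, 3 in place of 7 in SJL than in 129, and 2 in place of 1 were lower in SWR than in 129. The calls lost for B6 minus 129 were those of Mndal (LFC 0.47, FDR = 0.432 in edgeR), Ifi203 (LFC 0.31, FDR = 0.499 in edgeR), Ifi205 (LFC 1.17, FDR = 0.112 in edgeR) and Aim2. The levels of B6 (5.19 to 25.8 rpm) and 129 (0.895 to 5.13 rpm) do not overlap. In this comparison the term therefore extends a slope beyond the levels that these strains share, and its values are a description. Within 1000000 bases of the cluster, 26 odorant receptor genes with too few reads to be tested, picked for that reason after seeing the data, had 0.0441 rpm per kb in B6 and 0.00632 in 129, where the members had 1.14 and 0.306.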

How the data were processed

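RNA of vomeronasal epithelial tissue from 32 individual mice, 8 of each of 4 strains, was sequenced after ribodepletion. The authors trimmed the reads (Trim Galore, per the labels' processing notes), placed them with STAR on mm10 and counted unique pairs on the reverse strand of Ensembl genes. Deposited counts are whole numbers per gene. The deposited normalized signal was made by the authors from the counts with size factors of DESeq2, and its ratio to the count was constant within each library. Genes were grouped by the strain and sex in the labels and matched by Ensembl identifier to GENCODE M21 (GRCm38).

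DE was tested in edgeR 4.0.16 (R 4.3.3, limma 3.58.1) with TMM scaling, filterByExpr over 8 groups, strain and sex as additive terms and the quasi-likelihood test, with Benjamini-Hochberg adjusted p-values (FDR). SE is the absolute LFC over the square root of F. On simulated data, of genes changed by an FC of 2, 25 of 50 were called, and by an FC of 4, 49 of 50. The limit is itself an FC of 2, so a share near 25 of 50 there follows from the limit. The changed genes were drawn only from those with mean reads above the means of Ifi205, Ifi208, Ifi211 and Aim2, so these shares do not cover those members. Counting intervals cover counting error only. Alternatives were DESeq2 1.42.0, its size factors, no filter on low counts, a replicate block, each library left out, single sexes, another FDR and 3 added after seeing the data. The members and gene lists were chosen with earlier results of these data known. Named genes were all members, other PYHIN genes of the table, DE genes of each list (at most the 6 with the smallest FDR), the 2 genes most like each member and DE genes beside the cluster. Some genes that this rule names are not reported here. The set of other-tissue families was narrowed 2 times after its levels were seen, because expressed families were in it.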

Additional observations from a re-analysis of the deposited data

Results flagged for a closer look

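In 3 of the 40 sets of 8 libraries (10 members in each of 4 strains), the highest library stood off from the others beyond Dixon's 95% limit, where chance gives about 1 in 20. Ifi202b was at a normalized count of 36.5 and Mndal at 51.5 in 129 male replicate 1, and Mndal was at 12.7 in SJL female replicate 1. The causes were not tested.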

How the results depend on the processing

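Member counts and LFCs of all 60 member and pair combinations kept their direction and side of the limits with DESeq2, with its size factors in edgeR and with the replicate block (10 members called in at least 1 pair in each). That number was 9 in females only, in males only and with the other-tissue level as a term, and 7 with the macrophage marker sum as a term. No pairing by replicate number was seen. Same-numbered libraries had a median correlation of -0.013, with 22 of 112 over 0.1, against 0.011 and 74 of 336 for differently numbered ones. Of 32 libraries, 5 were best correlated with their own number. What the number stands for is not stated, so whether it pairs the mice cannot be told. The block called 3591 genes over all pairs in place of 3632. Over all genes, DESeq2 called 7564 and no filter on low counts 12873 of 44957 genes tested. Members lower in SWR than in SJL numbered 1 in place of 2 without a filter, in females only, in males only and with an FDR under 0.01, and 0 to 2 when each library was left out (0 without SWR male replicate 4, and 1 without SJL female replicate 1, 3 or 4, SJL male replicate 3 or 4, or SWR male replicate 1 or 3). Members higher in B6 than in 129 numbered 8 in females and 7 in males in place of 9, and those higher in B6 than in SWR numbered 6 in females in place of 8. In males only, 4 members were higher in SJL than in 129 and 2 lower in SWR than in 129. In females only, Ifi205 was not among the genes tested. With the other-tissue level as a term, 5 members were higher in B6 and 3 in SJL than in 129, and 2 lower in SWR than in 129. With the macrophage marker sum as a term, 3 members were higher in B6 than in 129, 4 in B6 than in SWR, 0 in SJL than in 129 and 1 in SWR than in 129, 2 were lower in SJL and 2 in SWR than in 129, and 0 lower in SWR than in SJL.

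The LFC changed sign for Ifi203 SWR minus 129 in females only (0.066), and in males only for Ifi203 SJL minus 129 (-0.077), Ifi205 SWR minus 129 (-0.51) and Ifi209 SWR minus SJL (0.082). It did so for Ifi205 SWR minus 129 with the other-tissue level (-0.053). With the macrophage sum it did so for Ifi203 B6 minus 129 (-1.0), Mndal B6 minus 129 (-0.50), Ifi202b SJL minus 129 (-0.13), Ifi203 SJL minus 129 (-1.37, FDR = 0.0182 in edgeR), Ifi205 SWR minus 129 (-0.31) and Ifi209 SWR minus SJL (0.29). Of these, the main calls lost were Ifi203 and Mndal B6 minus 129 and Ifi202b SJL minus 129. Ifi207 B6 minus SJL was called, at 1.02 to 1.09, without B6 female replicate 1, B6 male replicate 2, SJL female replicate 1 or 4, or SJL male replicate 3. Leaving out B6 female replicate 1 and 129 male replicate 1 together, chosen after seeing the data, kept 59 of 60 LFCs on their side of the limits. The cause of these changes was not tested. Members with under 10 reads in a library are measured with little precision.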
